A study of Mus musculus with 9 samples.

Results

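Acute-phase proteins are plasma proteins whose output by hepatocytes changes during infection or injury. The genes described here encode such proteins, other products induced with them in the liver, and 3 receptor chains of the interleukin-6 (IL-6) family. They were taken by symbol from a list of names, and all 32 were found among the 27179 genes of the deposited table. Of the 32, 31 reached an average level of 10 normalized counts and were tested. The exception was A2m, an alpha-macroglobulin protease inhibitor, which had at most 1.23 normalized counts in any library and was not analysed further. All samples were bulk liver RNA (poly(A) selected, from the m-lobe) of C57BL/6J mice labelled wild type, injected into the retro-orbital sinus at 17 months of age and killed 3 weeks later. Every animal, controls included, carried an AAV8 vector that expresses the nuclease saCas9 from TBG, a hepatocyte promoter. The U6-driven guide was directed at the Rosa26 locus in 4 animals (sgRosa26, libraries A to D) and at Ccnd1, the cyclin D1 gene, in 5 (sgCcnd1, libraries E to I). The letters name libraries in the order of the table's columns, which carry no replicate number, and no sex is given in the labels used here. Other cell types of the lobe contribute RNA too, and in bulk tissue fewer cells of a type and less RNA per cell cannot be told apart.

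IL-6 and its relatives bind a receptor chain such as the one encoded by Il6ra, which joins with the shared signalling chain gp130, encoded by Il6st. Osmr encodes the partner of gp130 for oncostatin M. The assembled receptor activates JAK kinases and the transcription factor STAT3. IL-1 and tumour necrosis factor act in parallel through NF-kB, and C/EBP factors bind many acute-phase promoters. Serum amyloid A and orosomucoid are strongly inducible in mouse liver, whereas fibrinogen and haptoglobin are abundant at rest and rise less.

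Sequencing depth ranged from 10.8 M to 20.2 M gene-assigned reads per library and was lowest in I and A. The targeted gene, Ccnd1, had 625 to 867 normalized counts in sgRosa26 and 325 to 428 in sgCcnd1, a difference of -1.03 on the log2 scale (adjusted p = 0.0116 in limma). Its direction held with each library left out, but the adjusted p in limma then rose to between 0.0558 and 0.0857 for B, D, F, H and I. Library H had 2.00 normalized counts summed over 4 Y-linked genes, against 1619 to 2834 in the other libraries, and was kept. Of the 7 hepatocyte markers listed, all 7 passed the expression filter, and their summed level ranged from 1714582 to 2007685 normalized counts in sgRosa26 and from 1610570.5 to 2075768 in sgCcnd1.

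Promoter sequences show what some of these genes share before any expression value is used. The RefSeq promoter table used here (GRCm38.p6, the build family named in the submitters' processing notes) held 25 of the 32 members. The window examined was the 250 bases upstream of the start site, and 4 short motifs were searched on both strands: TTGCNNAA for C/EBP, TTCNNNGAA for STAT factors, the NF-kB consensus and TGCGCNC for the metal response element. The C/EBP letters were present in 14 of 25 members (56.0%) and in 10.8% of 27025 genes. The STAT letters were present in 5 of 25 members (20%) and in 8.13% of genes, the NF-kB letters in 2 (8%) and 1.65%, and the metal response letters in 2 (8%) and 14.0%. These matches describe letters in a window and are not shown to be bound sites. The 6 windows printed below, 5′ to 3′ with every match in capitals, are from genes described below, some of which varied together and some of which did not: Saa1 and Saa2, which are divergent neighbours, the orosomucoid pair Orm2 and Orm3, the fibrinogen gene Fgb, and Steap4, where 3 of the 4 motifs were matched.
Saa1 (chr7:46742981-46743230, minus strand): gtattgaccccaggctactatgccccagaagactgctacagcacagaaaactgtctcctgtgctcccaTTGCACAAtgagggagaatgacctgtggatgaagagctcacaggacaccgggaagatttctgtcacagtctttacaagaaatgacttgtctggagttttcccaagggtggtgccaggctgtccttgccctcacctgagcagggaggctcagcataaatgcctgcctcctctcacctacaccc
Saa2 (chr7:46751583-46751832, plus strand): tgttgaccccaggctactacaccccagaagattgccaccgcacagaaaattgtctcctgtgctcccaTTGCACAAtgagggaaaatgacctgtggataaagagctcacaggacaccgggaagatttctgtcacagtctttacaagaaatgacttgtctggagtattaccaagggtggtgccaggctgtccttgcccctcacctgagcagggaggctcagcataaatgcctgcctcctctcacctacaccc
Orm2 (chr4:63362199-63362448, plus strand): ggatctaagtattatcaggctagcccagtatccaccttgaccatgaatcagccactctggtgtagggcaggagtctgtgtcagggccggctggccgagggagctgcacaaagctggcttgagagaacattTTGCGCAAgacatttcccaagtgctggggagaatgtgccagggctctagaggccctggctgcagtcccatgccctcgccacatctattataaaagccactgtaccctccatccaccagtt
Orm3 (chr4:63355908-63356157, plus strand): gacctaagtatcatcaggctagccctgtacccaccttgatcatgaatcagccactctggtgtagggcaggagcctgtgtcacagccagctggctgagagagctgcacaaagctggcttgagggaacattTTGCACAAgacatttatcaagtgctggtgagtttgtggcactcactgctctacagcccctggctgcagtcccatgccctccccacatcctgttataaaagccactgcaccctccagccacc
Fgb (chr3:83049864-83050113, minus strand): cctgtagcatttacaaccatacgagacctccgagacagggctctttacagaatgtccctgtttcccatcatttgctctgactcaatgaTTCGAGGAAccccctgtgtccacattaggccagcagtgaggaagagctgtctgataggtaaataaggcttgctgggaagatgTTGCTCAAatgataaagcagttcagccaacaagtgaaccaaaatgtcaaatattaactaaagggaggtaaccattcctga
Steap4 (chr5:7960222-7960471, plus strand): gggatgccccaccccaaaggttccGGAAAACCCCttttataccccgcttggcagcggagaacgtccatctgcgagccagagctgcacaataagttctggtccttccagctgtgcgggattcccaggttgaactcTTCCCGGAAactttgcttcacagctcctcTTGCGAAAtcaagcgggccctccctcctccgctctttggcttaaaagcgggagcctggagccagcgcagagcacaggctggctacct
In Saa1 and Saa2 the capitals mark the same C/EBP match, TTGCACAA, which begins 182 and 183 bases upstream of the start. The windows of this pair were 94.8% identical, and those of Orm2 and Orm3 85.5%. In Orm2 the match was the palindrome TTGCGCAA, 120 to 113 bases upstream. In Fgb the capitals mark a STAT match, TTCGAGGAA, and a C/EBP match, TTGCTCAA. In Steap4 they mark, in order, an NF-kB match on the minus strand, a STAT match and a C/EBP match.

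The level of these genes differed much more between animals than between guides. Library A of the control group and library G of the sgCcnd1 group were high for most members, so each group held 1 such library. The highest value fell in A or G for 26 of 31 members, and for 21 of them A and G were the highest pair. An acute-phase score was computed for each library as the mean over the 31 members of log2(normalized count + 1), relative to the sgRosa26 mean. Libraries A to D scored 0.49, -0.09, -0.05 and -0.34, and libraries E to I scored -0.25, -0.08, 0.68, -0.12 and 0.04. The group means differed by 0.05, with a pooled standard deviation (SD) within groups of 0.36 and a range of 1.03 over the 9 libraries. The spread within groups was 6.60 times the difference between them, a ratio that depended on single libraries and on the scaling. Without A the difference was 0.22 and the SD 0.31, and without G they were -0.10 and 0.26, so the direction turned; it also turned without D (-0.06 and 0.35). Leaving out B, C, E, F or H gave differences of 0.02, 0.04, 0.13, 0.09 and 0.10, with SDs of 0.36 to 0.39. With all libraries, the guide accounted for 0.72% of the score's sum of squares. Without A and G the difference was 0.06 and the SD 0.14.

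**Figure D1:**
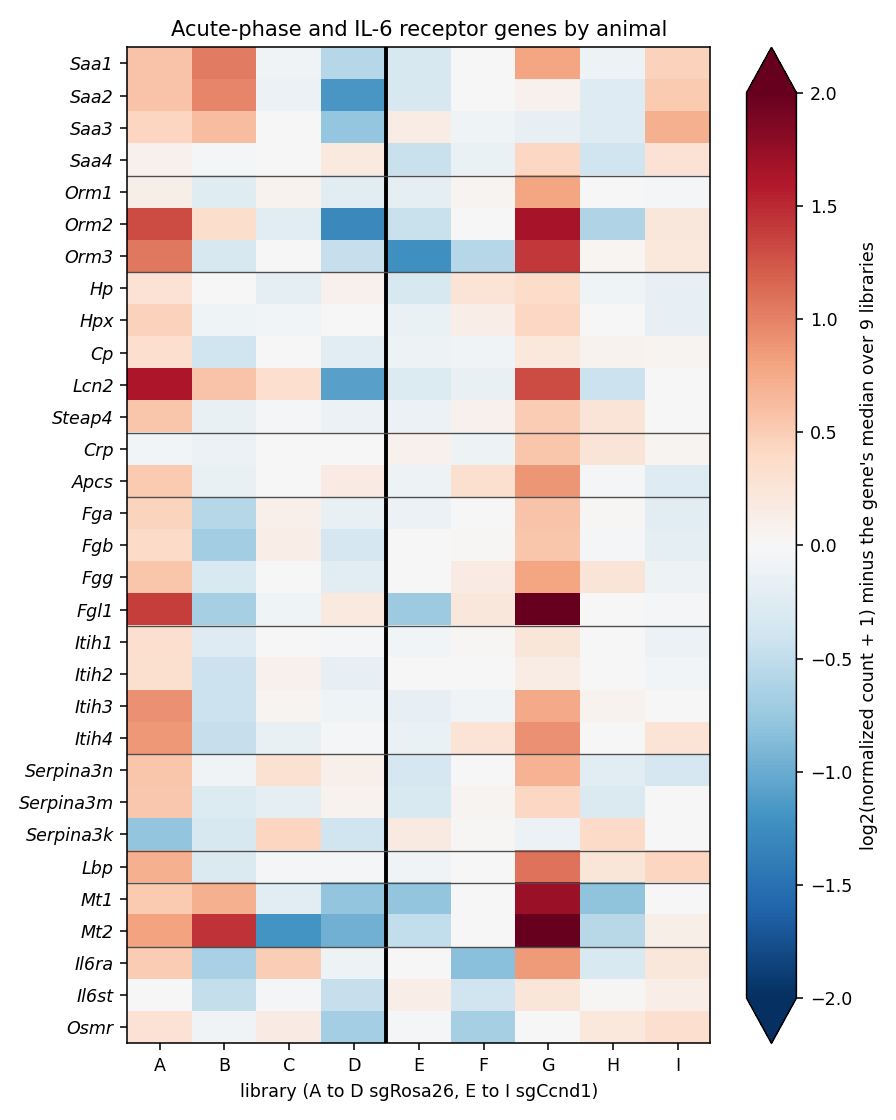
Level of each of the 31 members tested (rows, grouped by role) in each library (columns; A to D sgRosa26, E to I sgCcnd1), as log2(normalized count + 1) minus the gene's median over the 9 libraries. Columns A and G are red for most rows on both sides of the line between groups, and B is red for Saa1, Saa2, Saa3, Mt1 and Mt2 but blue for fibrinogen genes.

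**Figure D2:**
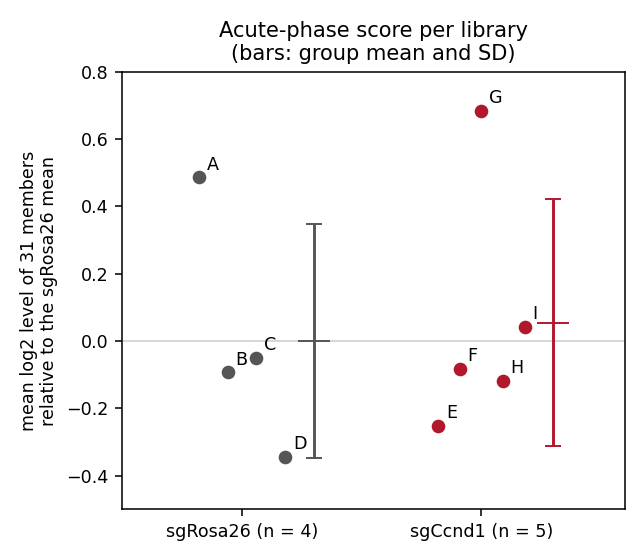
Acute-phase score of each library (points, mean log2 level of 31 members relative to the sgRosa26 mean) by group, with bars for the group mean and SD (n = 4 and n = 5). A at 0.49 and G at 0.68 lie above the other 7 libraries, which lie between -0.34 and 0.04.

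The serum amyloid A genes lie side by side on chromosome 7 (Saa3 at chr7:46711998-46719615 to Saa2 at chr7:46751833-46754313, GRCm38). Saa1 and Saa2 encode the lipoprotein-associated forms that surge in the acute phase, Saa3 a form also made outside hepatocytes, and Saa4 a constitutive form. Saa1 had 864, 1207, 557 and 392 normalized counts in A to D and 467, 585, 1011, 546 and 806 in E to I. B was therefore highest and D lowest, both of them controls, and the sgCcnd1 values lay inside the control range. Saa2 had 551, 730.2, 342 and 165 in A to D and 296, 371, 392, 309 and 535 in E to I, with the same highest and lowest library as Saa1. Saa3 ranged from 61.2 in D to 173 in I, and Saa4 from 2138 in E to 3888 in G. The log2 fold change for sgCcnd1 over sgRosa26 was -0.07 for Saa1 (standard error, SE, 0.30), -0.06 for Saa2 (0.34), 0.00 for Saa3 (0.27) and -0.11 for Saa4 (0.17). All 4 adjusted p-values in limma were at least 0.839. Over the longest coding transcripts, Saa1 and Saa2 were 87.3% identical, and 9.11% of the 50-base windows of Saa1 occurred unchanged in Saa2, so some of their reads may have been shared or split.

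Orosomucoids (alpha-1-acid glycoproteins) are small plasma carriers of drugs and lipids, encoded by 3 neighbouring genes (Orm1 at chr4:63344556-63348163 to Orm2 at chr4:63362449-63365877). Orm1 is the main form in this liver, at 10753 normalized counts per kilobase of transcript against 272 for Orm2 and 37.2 for Orm3. Orm1 had 8608, 6684, 8321 and 6788 normalized counts in A to D and 6994, 8270.1, 13647, 7931 and 7759 in E to I. Only G stood clear of the rest. Orm2 was far more variable, with 403, 207, 138 and 66.0 in A to D and 118, 162, 509, 107 and 190.2 in E to I. Its highest library was 7.71 times its lowest, with A and G at the top of their groups. Orm3 ranged from 9.91 in E to 66.6 in G, and A was second with 51.6. The log2 fold changes were 0.20 for Orm1 (SE 0.17), 0.13 for Orm2 (0.50) and -0.09 for Orm3 (0.47). The 95% interval for Orm2, from -0.96 to 1.22 reached beyond a 2-fold change. Orm1 and Orm2 share 20.4% of their 50-base windows, so the low values of Orm2 could include reads of Orm1.

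Fibrinogen, the clot precursor, is made of 3 chains encoded by adjacent genes (Fgg at chr3:83007724-83015056 to Fgb at chr3:83042246-83049863), and Fgl1 encodes a secreted relative of it. Fga had 115547, 57181, 90579 and 76733 normalized counts in A to D. In E to I it had 77854, 84649, 126039.9, 85878 and 72277. A and G were again highest, while B, where Saa1 was highest, was the lowest of all 9. Fgb and Fgg had the same highest library (G) and lowest library (B), with 2.38-fold and 2.14-fold ranges. Fgl1 was the most variable of the abundant members. It had 7424, 1793, 2662 and 3251 normalized counts in A to D and 1721, 3306, 12030.0, 2837 and 2790.2 in E to I, a 6.99-fold range. The log2 fold changes of the 4 genes lay between 0.09 and 0.22, and their smallest adjusted p in limma was 0.730.

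The inter-alpha-inhibitor heavy chains are plasma proteins, some of which become linked to hyaluronan. Itih1, Itih3 and Itih4 are neighbours on chromosome 14, and Itih2 is on chromosome 2. Itih4 had 55422, 21893, 27174 and 29888 normalized counts in A to D. In E to I it had 27419.7, 36494, 57219, 30222 and 36521. A and G exceeded every other library by at least 1.5 times. Itih3 had the same highest pair (24323 in A, 21737 in G, 9589 to 13451 elsewhere). Itih1 and Itih2 varied less, 1.51-fold and 1.69-fold over the 9 libraries. The 4 log2 fold changes ran from 0.00 to 0.21, each with an adjusted p in limma of at least 0.802.

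Haptoglobin (Hp) and hemopexin (Hpx) clear free haemoglobin and haem, and ceruloplasmin (Cp) is a copper-carrying ferroxidase. Lipocalin-2 (Lcn2) withholds iron by binding bacterial siderophores, and Steap4 encodes a metalloreductase. Hp, Hpx and Cp were abundant and narrow, with 1.61-fold, 1.53-fold and 1.66-fold ranges. Lcn2 had 373, 179, 152 and 56.3 normalized counts in A to D and 99.1, 109, 299.6, 89.0 and 121 in E to I. A and G were the 2 highest libraries, and D the lowest. Its mean was 189.9 ± 133 in sgRosa26 (SD, n = 4) and 143 ± 88.0 in sgCcnd1 (SD, n = 5), a log2 fold change of -0.27 with a 95% interval from -1.27 to 0.74. Steap4 was at 3004 in A, 2899 in G and 1836 to 2436 in the other 7. Neutrophils also make Lcn2. Of 10 neutrophil markers, 4 passed the expression filter, and their sum over all 10 was 149 normalized counts in A, 83.2 in G and 70.1 to 173 over all libraries. S100a8 and S100a9, named after their values were seen, were highest in A (48.0 and 56.6) and reached 22.5 and 28.4 in G. Mpo and Elane, also tested and also named afterwards, went the other way. They had 11.1 and 12.3 in A, 5.87 and 9.79 in G, and were highest in F (27.8 and 82.4). The part of these cells in the Lcn2 values was not tested.

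Among the pentraxins, Apcs (serum amyloid P) is the inducible form in mice and Crp (C-reactive protein) responds weakly. Apcs ranged from 1069 in I to 2360.4 in G and was 1841 in A. Crp had 5549, 5304, 5783 and 5745 normalized counts in A to D and 6145, 5377, 8512, 6880.1 and 5975 in E to I. A was not raised here. The log2 fold change of Crp was 0.22 (SE 0.12, limma adjusted p = 0.528), and 4 of 5 sgCcnd1 libraries lay above all controls. It was 1 of the 2 members with a group difference larger than the SD within groups.

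The Serpina3 genes encode relatives of alpha-1-antichymotrypsin and lie in a cluster on chromosome 12. Serpina3n and Serpina3m followed the other members, with 7430.2 and 6510.5 normalized counts in A, 8218 and 5989.5 in G, and at most 6229 and 4713 elsewhere. Serpina3k went the other way. It had 33788, 46763, 79020.2 and 44169 in A to D and 66422, 59478, 53694, 76276 and 58392 in E to I. Its lowest library was A, and G was the lowest of its group. Its log2 fold change of 0.36 was the largest in size among the 31 members (SE 0.21, limma adjusted p = 0.543), and it ran from 0.19 to 0.60 when single libraries were left out. Serpina3k and Serpina3m share windows too (12.8% of those of Serpina3k). Lbp, whose product hands bacterial lipopolysaccharide to CD14, had 1826 normalized counts in A, 2371 in G and 918 to 1502 in the other 7.

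Metallothioneins bind zinc and copper and are induced by metals, glucocorticoids and IL-6. Mt2 had 55.3, 86.8, 13.1 and 15.5 normalized counts in A to D and 22.1, 31.3, 143, 21.0 and 34.1 in E to I. It had the widest range of all members, 10.9-fold, with G and B on top. Mt1 had 124, 142, 74.1 and 49.5 in A to D and 49.6, 85.9, 286, 49.0 and 86.6 in E to I, the same top pair. The SD within groups was 1.19 (log2) for Mt2. The interval for Mt2 (log2 fold change 0.23, 95% from -1.12 to 1.57) reached beyond a 2-fold change in both directions.

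The SD within groups was 0.60 (log2) for Il6ra, 0.26 for Il6st and 0.41 for Osmr, beside a median of 0.38 over the members. Il6ra had 513, 231, 508 and 337 normalized counts in A to D and 362, 201, 656, 293 and 423 in E to I, highest in G and lowest in F. Il6st had 1924, 1384, 1902 and 1400.4 in A to D. In E to I it had 2102, 1460.1, 2273, 1956 and 2099. It was above all controls in 4 of 5 sgCcnd1 libraries, the exception being F. Its log2 fold change was 0.26 (SE 0.14, limma adjusted p = 0.526, the smallest of the members). Osmr ranged from 41.8 in D to 85.2 in I and differed by 0.04. Per kilobase of transcript, Il6st (211 normalized counts) was above Il6ra (45.3) and Osmr (12.2).

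Between guides, 0 of the 31 members changed at an adjusted p under 0.05 in limma, where 0.00770% of all 12993 genes tested were called. At an unadjusted p under 0.05 the count was also 0 of 31, beside 11.0% of all genes. With edgeR and with DESeq2 on the recovered reads it was 0 of 31 as well, beside 0.00770% and 0.976% of genes. The DESeq2 share was 0.342% for higher and 0.634% for lower in sgCcnd1. The groups overlapped in every member, whereas 3.89% of all genes had no overlap. Means were higher in sgCcnd1 for 20 members and lower for 11, with a median log2 fold change of 0.04 beside 0.01 over all genes. That median had no stable direction: it was -0.08 without G, -0.02 without D and 0.19 without A. Single members moved as much. Without G the log2 fold change was 0.03 for Orm1, 0.12 for Crp, 0.07 for Fgg and 0.05 for Lbp, and without B it was 0.02 for Fgb and 0.03 for Itih4. These counts do not show that the genes are equal between groups. For 25 members the 95% interval lay within a 2-fold change in either direction, and for Orm2, Orm3, Lcn2, Fgl1, Mt1 and Mt2 it did not.

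**Figure D3:**
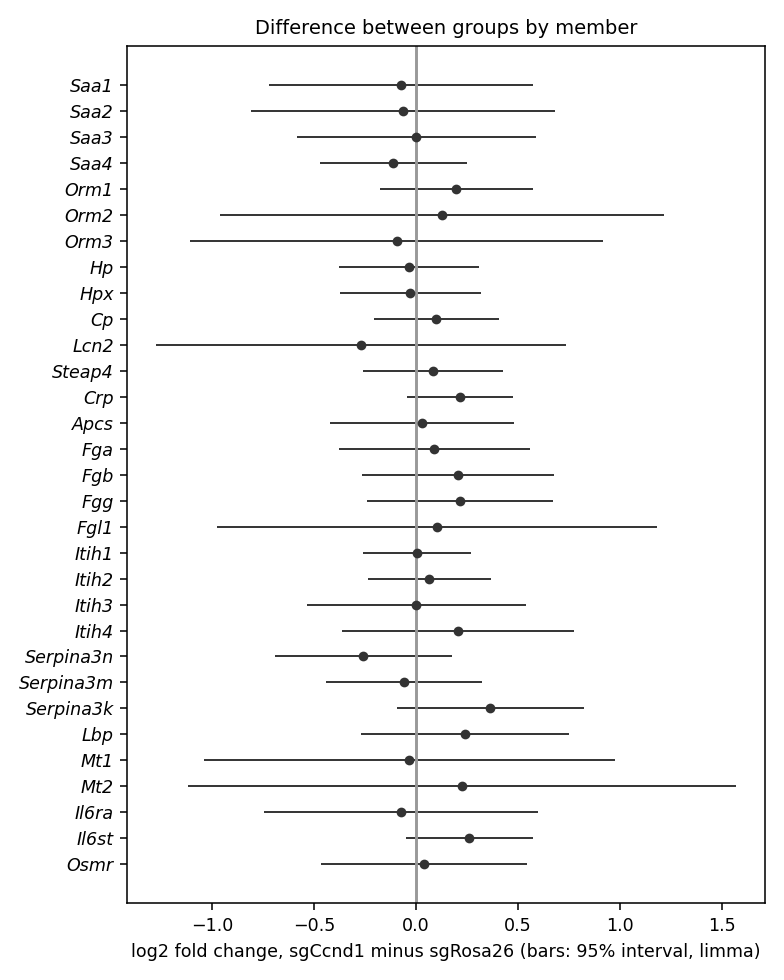
Log2 fold change (sgCcnd1 minus sgRosa26, points) with its 95% interval in limma (bars) for the 31 members tested, n = 4 and n = 5 libraries. Every interval crosses 0, and those of Orm2, Orm3, Lcn2, Fgl1, Mt1 and Mt2 extend beyond 1 or -1.

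Set against the group difference, the spread between animals was large for almost every member. The SD within groups exceeded the absolute difference between group means in 29 of 31 members, beside 71.5% of all genes. The 2 exceptions were Crp and Il6st. The median SD was 0.38 for members and 0.20 for all genes (0.17 for genes averaging 100 normalized counts or more). The median absolute difference was 0.09 for members and 0.12 for all genes. The median ratio of SD to difference was 5.29 for members and 1.62 for all genes, and the guide accounted for a median of 1.12% of the sum of squares beside 10.8%. Because the members varied together, as described below, these counts and medians do not rest on 31 independent genes. The ratio for members depended on single libraries. It fell to 1.80 without A, 2.60 without G, 3.05 without B, 3.44 without C, 2.95 without D and 2.87 without I and was 1.98 without A and G together. All-gene values under these omissions were between 1.36 and 1.64.

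**Figure D4:**
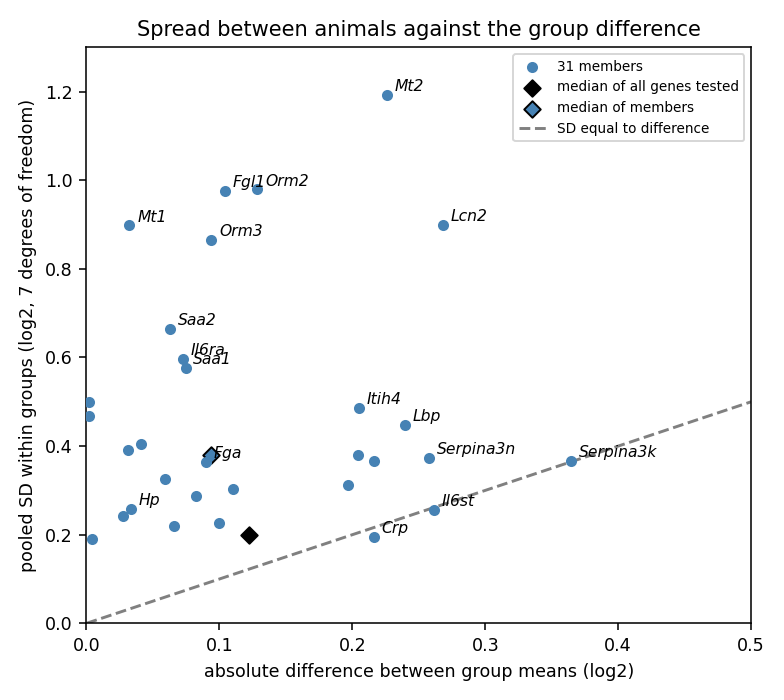
Pooled SD within groups (vertical axis, log2) against the absolute difference of group means (horizontal axis, log2) for the 31 members (blue points), with the median of the members and of all 12993 genes tested (diamonds). Crp and Il6st lie just below the dashed line where the values are equal, and Mt2, Orm2, Fgl1, Lcn2, Mt1 and Orm3 lie far above it.

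Members rose and fell together across animals. Deviations from the group means were correlated between members, with a median Pearson r of 0.61 over 465 pairs of genes, beside -0.002 over all pairs of genes tested. Of the 465 pairs, 37.8% had r above 0.7, beside 4.25% of all pairs, and 53 were negative. These values rest on the same 9 libraries and describe them. The first principal component of the scaled deviations held 61.1% of the members' variance and the second 15.1%. Agreement within a role varied. Mt1 and Mt2 had r = 0.93, and the median r was 0.91 among the 4 heavy-chain genes, 0.90 among the 4 fibrinogen genes, 0.81 among the 3 receptor genes, 0.80 among the 3 orosomucoid genes and 0.73 among the 5 carriers of haem, iron and copper. It was lower for the pentraxins (0.57) and serum amyloid A genes (0.56), and -0.31 among the 3 Serpina3 genes. Fibrinogen and heavy-chain genes were correlated with each other at a median of 0.91, but fibrinogen and serum amyloid A genes at 0.07. Serum amyloid A genes had a median of 0.63 with the metallothioneins. Itih3 had the highest median correlation with the other members (0.80). Serpina3k had the lowest (-0.40), below 0 with 27 of 30 members, followed by Saa3 (-0.01).

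Much of the agreement depended on A and G, between roles and within some of them. Without both, an omission chosen after their scores were seen, the median r over all 465 pairs was 0.15, and without A or G alone it was 0.54 and 0.41. Without both, 15.5% of the 465 pairs had r above 0.7. Over all pairs of genes tested that share was then 7.56%, and the median r was -0.001. For the 426 pairs of different roles the median went from 0.59 to 0.09, and for the 39 pairs of the same role from 0.81 to 0.52. Within roles the median then was 0.28 for the orosomucoid genes, -0.04 for the carriers and -0.30 for the pentraxins, while it was 0.82 for the receptors, 0.70 for the heavy chains and 0.64 for the fibrinogen genes. One group of genes was close in the remaining 7 libraries too. Saa1, Saa2, Saa3, Orm2, Lcn2, Mt1 and Mt2 were correlated with each other there, with r (of deviations) of 0.98 for Saa1 and Saa2, 0.94 for Orm2 and Lcn2, and 0.92 for Saa1 and Mt1, against 0.89, 0.98 and 0.86 over all 9 libraries; the lowest of their values was 0.57, for Lcn2 and Mt2 (0.77 over all 9). Saa3 was less close to the group over all 9 libraries. Its r was 0.34 with Mt1 and 0.49 with Orm2, against 0.82 and 0.91 without A and G. Saa2 was less close too, at 0.60 and 0.69, against 0.93 and 0.97 without A and G. These 7 genes were picked out after the values were seen. Serum amyloid A and fibrinogen genes had a median r of -0.46 in these libraries, metallothionein and heavy-chain genes one of -0.60, and Fga and Mt2 one of -0.90. Library B, high in Saa1, Saa2, Mt1 and Mt2 and lowest in Fga, Fgb and Fgg, and library D, lowest in Saa1, Saa2, Saa3, Orm2 and Lcn2, are visible in that contrast.

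**Figure D5:**
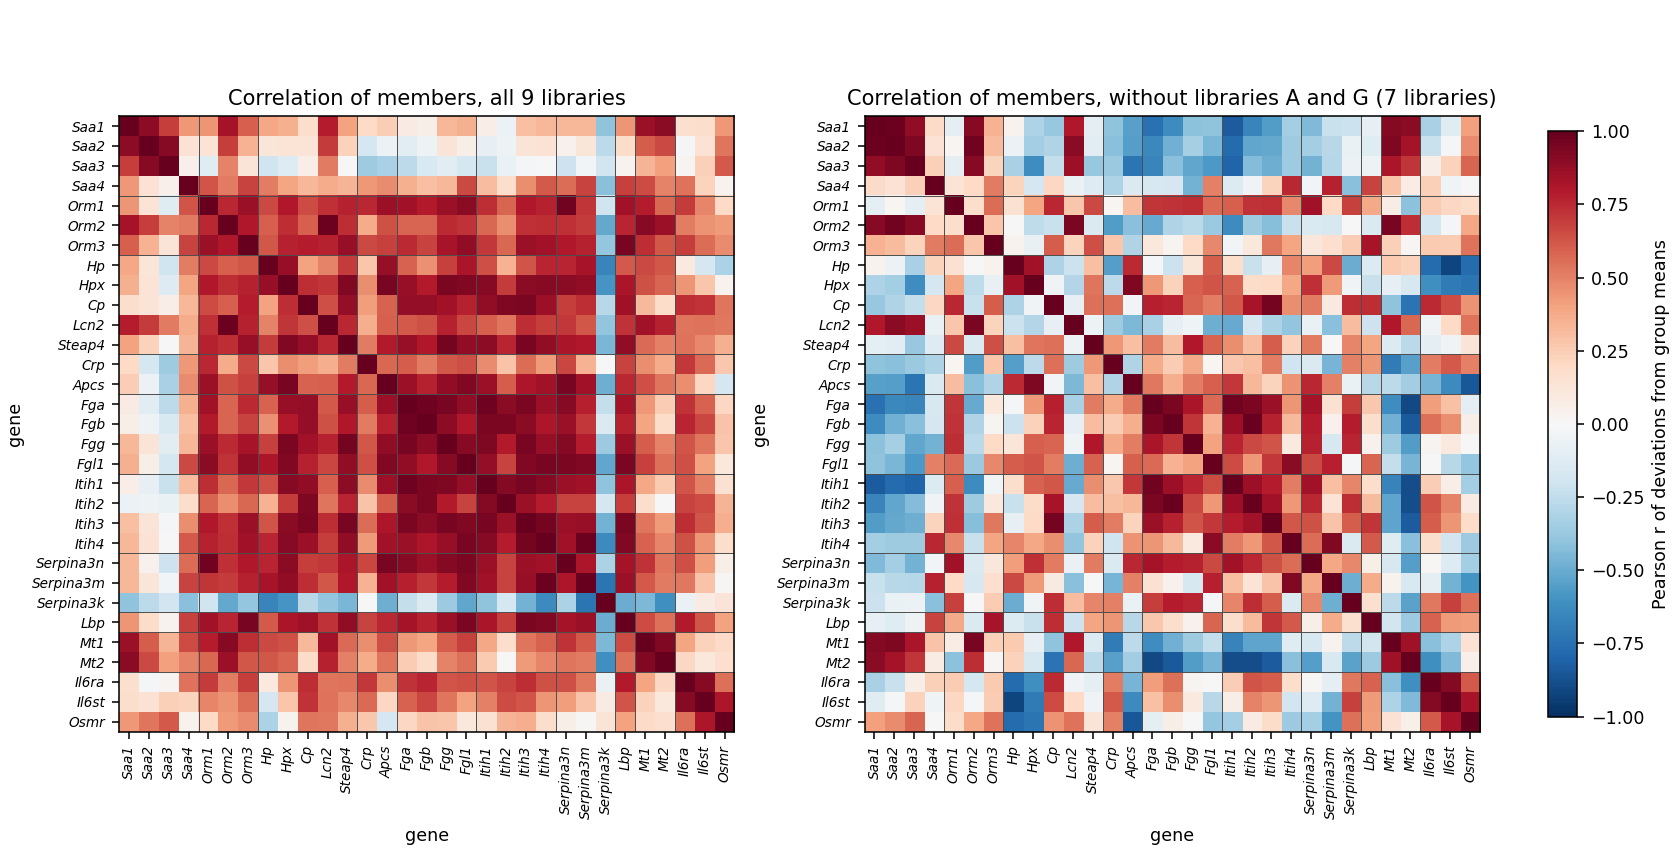
Pearson r between the 31 members, computed on deviations from group means over all 9 libraries (left) and over the 7 libraries without A and G (right), ordered by role. On the left nearly all blocks outside Serpina3k and the serum amyloid A genes are red; on the right Saa1, Saa2, Saa3 (but not Saa4), Orm2, Lcn2 and the metallothionein genes are red with each other and so, for the most part, are fibrinogen and heavy-chain genes.

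For 12 pairs chosen by role, levels over the 9 libraries were compared with an exact two-sided permutation test, adjusted over the 12. The pairs were chosen with earlier results of these data known, so their p-values describe these libraries and are not independent support. Saa1 with Saa2 and Orm1 with Orm2 may share reads, and the part of this in their r was not tested. Pearson r passed in 7 pairs and Spearman's rho in 6. Fga and Fgb gave r = 0.96 (exact permutation p = 0.000102, adjusted p = 0.00122) and rho = 0.93 (exact permutation p = 0.00075, adjusted p = 0.003). Without B and G, the libraries farthest from the median of Fga, r was 0.89. Saa1 and Saa2 gave r = 0.89 (exact permutation p = 0.000956, adjusted p = 0.00287) and rho = 0.95 (exact permutation p = 0.000353, adjusted p = 0.003), and r was 0.96 without B and G. Mt1 and Mt2 gave r = 0.92 (exact permutation p = 0.000548, adjusted p = 0.00263) and rho = 0.88 (exact permutation p = 0.00308, adjusted p = 0.00738), and r was 0.86 without G and H. Saa1 and Orm2, from different families on different chromosomes, gave r = 0.82 (exact permutation p = 0.00563, adjusted p = 0.0135) and rho = 0.93 (exact permutation p = 0.00075, adjusted p = 0.003), and r was 0.92 without B and G. That pair lost the threshold without D (r = 0.75, adjusted p = 0.0775). The other 3 that passed were Fgb with Fgg (r = 0.91), Saa1 with Lcn2 (0.78) and Orm1 with Orm2 (0.73), with exact permutation adjusted p of 0.00263, 0.0250 and 0.0337. Their rho was 0.88, 0.87 and 0.50, the last with an exact permutation adjusted p of 0.213, and r without B and G was 0.85, 0.81 and 0.76. Without A and G it was 0.79, 0.80 and 0.23, so Orm1 and Orm2 were only weakly correlated in the other 7 libraries. Saa1 with Lcn2 lost the threshold without D (adjusted p = 0.111) or G (0.0553), and Orm1 with Orm2 without A (0.0696), D (0.0825) or G (0.299), all by exact permutation.

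The 5 pairs that did not pass included the receptor with a product. Il6ra and Saa1 gave r = 0.17 (exact permutation p = 0.661, adjusted p = 0.721) and rho = 0.22 (exact permutation p = 0.581, adjusted p = 0.581), and r was -0.18 without F and G. Saa2 and Hp gave r = 0.13 (exact permutation p = 0.752, adjusted p = 0.752) and rho = 0.37 (exact permutation p = 0.336, adjusted p = 0.367), and r was 0.42 without B and D. Saa1 with Saa3 (r = 0.69, exact permutation adjusted p = 0.0558) and Il6st with Osmr (r = 0.73, exact permutation adjusted p = 0.0508) were near the threshold. They passed it on leaving out E or G for Saa1 with Saa3 (adjusted p = 0.0487 and 0.0209) and B, E or G for Il6st with Osmr (0.0459, 0.0487 and 0.0493), all by exact permutation. Hp with Lbp had r = 0.57 (exact permutation adjusted p = 0.132). The rho of these 3 pairs was 0.55, 0.53 and 0.62, none passing the adjustment (exact permutation adjusted p = 0.197, 0.197 and 0.147). Leaving out the 2 farthest libraries gave r of 0.86, 0.72 and 0.22. For Hp and Lbp r was also -0.17 without A and G and 0.32 without G alone.

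Other genes of the pathway were read from lists of symbols. Of 26 genes of IL-6 family signalling, 21 were tested and 0 passed in limma, with 11 higher and 10 lower and a median log2 fold change of 0.02. Il6 itself, named as the ligand of the pathway, had at most 2.00 normalized counts in any library. The 2 with the smallest p were Clcf1, a cytokine of this family, and Lifr, a receptor chain that pairs with gp130. Clcf1 had 28.6 ± 8.55 normalized counts (SD, n = 4) and 15.0 ± 3.61 (SD, n = 5; limma adjusted p = 0.279), and Lifr differed by 0.27 on the log2 scale (limma adjusted p = 0.540). Stat3, named after its values were seen, had 3005, 1629, 2406 and 2139 in A to D and 1942, 2287, 3431, 1972 and 2011 in E to I. It was highest in G and A. Socs3, the feedback inhibitor that STAT3 induces, also named afterwards, was highest in G (171) and A (111), against 43.5 to 103 elsewhere. Others of the list, also named after their values were seen, did not follow in both libraries. Cebpb was lowest in A (748) and highest in G (1612). Bcl3 was highest in A (540) and lowest in G (254), and Pim1 was lowest in A (216). The mean level of the list relative to the sgRosa26 mean was 0.07 in A and 0.11 in G, and -0.14 to 0.02 in the other 7.

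Of 14 other inducible acute-phase genes, all 14 were tested and 0 passed, with a median log2 fold change of 0.10. C9, a terminal complement component, had 4357 ± 566 normalized counts (SD, n = 4) and 5649 ± 1049 (SD, n = 5; log2 fold change 0.37, limma adjusted p = 0.358), and Mbl2, a mannose-binding lectin, had -0.32 (limma adjusted p = 0.471). Their mean level relative to the sgRosa26 mean was 0.26 in A and 0.38 in G, and -0.20 to 0.05 in the other 7. C3, Lrg1 and Hamp are named here after their values were seen. C3 and Lrg1 were highest in A and G. Hamp, the iron hormone hepcidin and also inducible by IL-6, was lowest in G (5703 normalized counts, against 8243 to 17425 elsewhere) and was 13208 in A. Of 10 negative acute-phase genes, which fall during the response, 0 passed, and their mean level was -0.14 in A and 0.00 in G, within -0.14 to 0.17 over all libraries. In that list the smallest p-values belonged to Apoa1 (log2 fold change -0.21, limma adjusted p = 0.662) and Ahsg (-0.11, 0.814).

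Glucocorticoids and the clock also act on some members, so lists for both were read beside the score. For 10 glucocorticoid-induced genes the mean level relative to sgRosa26 was 0.59 in G and 0.15 in A, and -0.19 to 0.35 in the other 7, with 0 of 10 called in limma and 2 at an unadjusted p under 0.05. DESeq2 called Klf9, but 0 of 10 without library H. Klf9 had the smallest p of the list in limma, with 815 ± 175 normalized counts (SD, n = 4) and 1312 ± 238 (SD, n = 5; adjusted p = 0.227), and Sgk1 was highest in A (846) and low in G (281). For 12 clock genes the level was -0.03 in A and 0.19 in G, within -0.23 to 0.25, with 0 of 12 called in limma. At an unadjusted p under 0.05 the count was 7 of 12 (5 higher and 2 lower in sgCcnd1), beside 11.0% of all genes. DESeq2 called Npas2, beside 0.976% of all genes. Npas2 had a log2 fold change of -1.29 and Nr1d2 one of 0.44 (limma adjusted p = 0.225 and 0.282). Summed Kupffer cell markers were 1725 normalized counts in A and 1939 in G, within 1725 to 2612 over all libraries. Summed monocyte and macrophage markers were 1170.3 to 1326 in sgRosa26 and 813 to 981 in sgCcnd1, with all 5 markers lower in the mean and 0 called. At an unadjusted p under 0.05 in limma, 3 of these 5 were lower, beside 11.0% of all genes in either direction. Summed T and NK cell markers were 46.7 to 127 in sgRosa26 and 14.0 to 104 in sgCcnd1, with 46.7 in A and 35.2 in G. Of these 3 markers 0 were called, and 3 were lower at an unadjusted p under 0.05 in limma. The other marker lists overlapped between groups: cholangiocyte 928 to 1906 against 750 to 1165, stellate cell 2435 to 3949 against 2253 to 3317, endothelial cell 1503 to 2279 against 1716 to 2396, B and plasma cell 112 to 359 against 116 to 302, and red cell 1134 to 2166 against 1799 to 2087. Their part in the score was not tested.

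Outside the members, 8886 genes averaging 100 normalized counts or more were ranked by the correlation of their deviations with the score. Of the 8886, 12 had r above 0.9 and 6 had r below -0.9, and how many would do so by chance was not tested. The 8 highest, given as a description, were Gdap2 (r = 0.97), Slc25a51, Dnajc12 and Cfb (each 0.94), and Fosl2, Ehbp1, F7 and Slc3a1 (each 0.92). Cfb is complement factor B and F7 is coagulation factor VII, both secreted by hepatocytes. Fosl2 encodes an AP-1 subunit and had 288 normalized counts in A, 310.3 in G and 152 to 219 in the other 7. The 4 lowest were Sh3pxd2a (-0.94), Cyp4a12a (-0.92), Olig1 (-0.91) and Dnajc11 (-0.90). Cyp4a12a, a fatty acid hydroxylase of male-type liver, had 532 in A and 1207 in G, the 2 lowest of all libraries, against 1507 to 3198 elsewhere.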

How the data were processed

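The deposited table holds a never-negative signal, which the authors call normalized counts, for each gene and animal. Per the submitters' processing notes, the tools were Trim Galore 0.6.7, HISAT2 2.2.1, featureCounts 2.0.3 and DESeq2 (listed as 2.11.40.8), with builds mm10 and GRCm38; their settings, and the use of strand, are not given in the sources used here. In each library 100% of nonzero values were whole multiples (within 0.05) of what 1 read is worth; the deposited signal therefore is a read count divided by 1 size factor.

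Each column was matched to its group only. Levels were set to log2(normalized count + 1) for genes with a mean of at least 10, and fold changes on this scale understate changes of low genes. Groups were compared with limma 3.58.1 (eBayes with trend, two-sided, R 4.3.3), adjusted by Benjamini-Hochberg over all 12993 genes at 0.05. edgeR 4.0.16 and DESeq2 1.42.0 were run on the recovered reads. Nothing in the labels says that libraries came from separate cages or days, so p-values measure only the spread between these samples, and depth gives counting error only. The members, lists, pairs and roles were chosen with earlier results of these data known. Named genes were all members, the 2 label checks, the 2 genes of each list with the smallest p, and the genes most and least like the score; any other gene is marked where it is named. Transcript lengths and identities used GENCODE M21 and promoters RefSeq. The fits and the correlation measures were tested on simulated data. Alternatives were pseudocounts of 0.1 and 10, every gene or only those averaging 100 or more, quantile and 75th percentile scaling, robust eBayes, the count models and leaving out each library; the settings without A and G, and the count models without H, were chosen after seeing the data.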

Additional observations from a re-analysis of the deposited data

Results flagged for a closer look

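One library lay far from the others of its group for 12 of 64 sets of values examined, where about 3.2 would be so by chance, and the genes are not independent of each other. In the sgCcnd1 group it was G in all 10 cases, given in normalized counts with the range of the other 4 libraries. The first were Orm1 (13647, against 6994 to 8270.1), Orm2 (509, against 107 to 190.2), Lcn2 (299.6, against 89.0 to 121), Fga (126039.9, against 72277 to 85878), Fgb (82105, against 49546 to 56977). The others were Fgl1 (12030.0, against 1721 to 3306), Itih3 (21737, against 11422 to 13451), Serpina3n (8218, against 4018 to 5055), Mt1 (286, against 49.0 to 86.6) and Mt2 (143, against 21.0 to 34.1). In the sgRosa26 group it was A for Hpx (71169, against 48889 to 51872) and Steap4 (3004, against 1836 to 2002). Depth was 16.7 M reads in G, within the range of the other libraries, and 12.2 M in A.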

How the results depend on the processing

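With every alternative run, 0 members were called. The score difference ran from -0.10 without G to 0.22 without A. It was 0.017 (SD 0.35) with quantile normalization and 0.021 (SD 0.36) with 75th percentile scaling. Ccnd1 was lower under every setting, from -1.11 to -0.96 when 1 library was left out. Its call was lost (adjusted p over 0.05) on leaving out any of B, D, F, H and I (largest 0.0857 in limma), without A and G (-1.08, 0.0767) and in edgeR without H (-1.02, 0.056); DESeq2 without H kept it (-1.02, 1.07e-08). The members' median r was 0.15 without A and G. The ratio of SD to difference was 3.30 with quantile normalization, 1.98 without A and G, and 1.80 to 5.28 with 1 library left out. Between 4 and 9 of the 12 pairs passed with 1 library left out. Values near 0 changed sign. With quantile normalization the log2 fold change was -0.043 for Apcs, -0.078 for Itih1, -0.055 for Itih3, 0.010 for Mt1 and 0.040 for Orm3. With 75th percentile scaling it was -0.0028 for Apcs, -0.030 for Itih1, -0.032 for Itih3 and -0.031 for Saa3. With edgeR it was -0.017 for Itih1, -0.060 for Itih3, 0.18 for Mt1, 0.052 for Orm3 and -0.069 for Saa3, and with DESeq2 -0.012, -0.054, 0.18, 0.049 and -0.058. For Saa3 a pseudocount of 10 gave -0.0027. With 1 library left out, the log2 fold changes that crossed 0 ran over these ranges: Apcs -0.15 to 0.16, Cp -0.0096 to 0.24, Fga -0.086 to 0.25, Fgl1 -0.34 to 0.50, Hp -0.12 to 0.051, Hpx -0.12 to 0.098, Il6ra -0.31 to 0.13, Itih1 -0.088 to 0.11, Itih2 -0.062 to 0.19, Itih3 -0.18 to 0.27, Lcn2 -0.75 to 0.15, Mt1 -0.46 to 0.19, Mt2 -0.25 to 0.70, Orm2 -0.31 to 0.55, Orm3 -0.45 to 0.23, Osmr -0.16 to 0.20, Saa1 -0.35 to 0.19, Saa2 -0.47 to 0.24, Saa3 -0.28 to 0.19, Serpina3m -0.17 to 0.11, Steap4 -0.0082 to 0.25. Those that did not cross 0 ran over Crp 0.12 to 0.28, Fgb 0.015 to 0.38, Fgg 0.072 to 0.40, Il6st 0.18 to 0.37, Itih4 0.03 to 0.48, Lbp 0.052 to 0.44, Orm1 0.033 to 0.27, Saa4 -0.23 to -0.013, Serpina3k 0.19 to 0.60, Serpina3n -0.44 to -0.15. The members' median ran from -0.081 to 0.19. In the same way r ran from -0.083 to 0.59 for Il6ra and Saa1 and from -0.0049 to 0.28 for Saa2 and Hp. The cause was not tested. No paired analysis was possible because replicate numbers are missing from the table's columns. Counting error is largest for Orm3, Mt2 and Osmr.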
